A study of Mus musculus with 2 samples.

Results

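Retnla, Arg1, Mrc1, Cd163, Mgl2 and Folr2 are genes that macrophages carry in the state called alternative activation, and they were followed across a control mouse lung and a mouse lung with breast cancer metastases. These 6 genes, of the 32285 features in the deposited tables, were selected on their symbols with their measured levels by distance from tumour already known. Their levels by zone are therefore a description, with no test. The question was where each gene was measured relative to the metastases: in the tumour, at its margin, or in the resident macrophages of lung without tumour.

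The data were spatial transcriptomes of fresh-frozen lung, in which a tissue section lies on a slide printed with barcoded spots, so that each spot gives the transcript counts of a small region holding several cells. One section, labelled Lung_normal_1, came from a lung with no treatment. The other, labelled Lung_metastasis_1, came from a lung with metastases of 4T1, a mouse mammary carcinoma line of Balb/c origin that spreads from the mammary fat pad (m.f.p.) to the lung. Per the study's methods, the hosts of 4T1 were female Balb/c mice of 6 to 8 weeks with an intact immune system, 1000000 cells were injected into the fat pad, and lungs were taken after 21 to 23 days; an age for the control animal was not given in the sources used here. There was 1 section per group, so no value has a replicate and no p-value is given. All intervals are exact 95% intervals that cover counting error only.

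Macrophages take up different programmes according to the signals around them. The cytokines IL-4 and IL-13, acting through the transcription factor STAT6, raise a set of genes in mouse macrophages that includes Retnla, Arg1, Mrc1 and Mgl2, and this state is known from tissue repair, helminth infection and tumours. The lung holds alveolar macrophages in the air spaces and interstitial macrophages along vessels and airways, and Cd163 and Folr2 are known as markers of the latter. Tumours also draw in macrophages that arise from blood monocytes.

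The members differ in what they encode. Retnla, which lies on the forward strand at chr16:48842609-48844461 in mouse build GRCm38, encodes resistin-like molecule alpha, a small secreted protein. Arg1 (reverse strand, chr10:24915207-24927470) encodes arginase 1, which turns arginine into ornithine and urea. Mgl2 (forward strand, chr11:70130125-70137542) encodes a C-type lectin that binds galactose-type sugars and is also found on dendritic cells. Folr2 (reverse strand, chr7:101839988-101857190) encodes folate receptor beta, Mrc1 (forward strand, chr2:14229414-14332023) the mannose receptor CD206, and Cd163 (forward strand, chr6:124304636-124330529) the scavenger receptor for haemoglobin bound to haptoglobin.

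RefSeq promoter windows, from 250 bases before to 50 bases after a start site on GRCm38.p6, were held for 5 of the 6 members, Arg1 having none. Windows of the 2 members with the largest ratios of tumour margin to far lung, Retnla and Mgl2, and of Folr2, the member with the largest ratio of tumour to far lung, are printed 5′ to 3′ on the strand of the gene. Capitals mark matches to TTCNNNNGAA, the spacing preferred by STAT6, to TTCNNNGAA, the same palindrome with a shorter spacer, or to GAGGAA, a core bound by ETS factors such as PU.1, each searched on both strands.
Retnla, chr16:48842359-48842658, forward strand: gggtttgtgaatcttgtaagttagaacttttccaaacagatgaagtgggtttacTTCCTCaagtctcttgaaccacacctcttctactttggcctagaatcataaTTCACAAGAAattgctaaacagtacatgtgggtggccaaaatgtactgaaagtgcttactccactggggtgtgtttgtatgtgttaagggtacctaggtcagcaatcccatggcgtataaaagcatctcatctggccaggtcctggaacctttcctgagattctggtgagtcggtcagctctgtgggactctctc
Mgl2, chr11:70130107-70130406, forward strand: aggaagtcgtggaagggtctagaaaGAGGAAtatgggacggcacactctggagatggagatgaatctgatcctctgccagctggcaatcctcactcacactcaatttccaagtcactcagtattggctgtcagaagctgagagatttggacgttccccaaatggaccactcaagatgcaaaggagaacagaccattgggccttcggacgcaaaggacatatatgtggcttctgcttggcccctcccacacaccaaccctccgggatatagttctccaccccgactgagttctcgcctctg
Folr2, chr7:101857141-101857440, reverse strand: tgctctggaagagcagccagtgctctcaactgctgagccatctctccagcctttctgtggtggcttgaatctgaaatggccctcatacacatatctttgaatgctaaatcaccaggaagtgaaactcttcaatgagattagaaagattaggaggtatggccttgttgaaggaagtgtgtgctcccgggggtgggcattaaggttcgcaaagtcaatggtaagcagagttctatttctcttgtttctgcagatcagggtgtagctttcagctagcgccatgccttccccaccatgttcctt
The Retnla window held TTCACAAGAA, a match to TTCNNNNGAA that begins 145 bases before the start site, and a GAGGAA on the opposite strand, read as TTCCTC, 196 bases before it. The Mgl2 window held GAGGAA 225 bases before the start site of that window. The gene as given above begins at 70130125 and the window at 70130107, so this start site and the match lie within the gene. The Mrc1 window held 3 copies of GAGGAA on the opposite strand. Neither the Cd163 window nor either of the 2 Folr2 windows held any of these motifs. TTCNNNGAA was in none of the members' windows. Of all 32851 promoter windows, 6.95% held TTCNNNNGAA, 8.30% held TTCNNNGAA and 28.3% held GAGGAA, so that single matches are common. A match is a run of letters and not a measured site.

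Tumour spots were found with 3 genes of the 4T1 cells, Csn3 (kappa casein), Etv4 (an ETS family transcription factor) and Mmp3 (the protease stromelysin). Of the 1110 spots of the metastatic section, 82 had a mean log2(counts per 10000 + 1) of these genes of at least 0.562, and the 68 of them that touched another such spot formed the tumour core. The rest of the section was divided by its distance from the core, in steps of 100 µm from spot to spot: 97 margin spots within 2 steps, 155 intermediate spots at 3 to 5 steps, and 790 spots of far lung at 6 steps or more. The core spots formed 5 connected groups, and those within 5 steps of each other were joined. This left 2 groups, a larger one of 63 spots along the border of the tissue and a smaller one of 5 spots inside it. The smaller group rests on few counts, 0 of Csn3, 7 of Etv4 and 3 of Mmp3, against 103, 153 and 460 in the larger, and its shallowest spot held 1378 counts of all genes, so that it is called here a group of spots and not a metastasis. Of 7 further genes listed for 4T1 tumour, Mki67 and Top2a, genes of dividing cells, were at least 2-fold higher in the core than in far lung, whereas Krt19, Cdh1 and Epcam, which lung epithelium also expresses, were at least 2-fold lower. In the control section 7 of 1888 spots passed the same threshold.

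The control section held 20329126 counts and the metastatic section 14657881, with medians of 9643.5 and 11334.5 counts per spot. The depth was uneven between zones: the median was 20890.5 counts in the core, 11069 in the margin and 10862.5 in far lung, and the 5 core spots of the smaller group held 23992 counts together. A level below is the summed counts of a gene in a zone per 10000 counts of all genes in it. In spots, fewer cells of a type and less RNA per cell cannot be told apart, and a level also moves with the other transcripts of the zone. Scgb1a1, the secretory protein of airway club cells, made up 0.246% of the counts in the core, 1.92% in the margin, 16.5% in the intermediate zone, 23.1% in far lung and 15.2% in the control. Markers of lung were present in both sections, with summed alveolar markers at 309 counts per 10000 in the control and 197 in far lung. The control section also held heart muscle genes at 29.3 counts per 10000, against 0.0685 in far lung. The 2 sections shared 858 barcodes, which name positions on the array and not cells.

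Of the 5 members with at least 20 counts in margin and far lung together, 4 were at least 2-fold higher in the margin, Retnla, Mgl2, Arg1 and Folr2, and 0 were at least 2-fold lower. Of 13170 genes held to the same limits, 20.3% were higher and 9.23% lower. The median log2 ratio was 1.84 for the members and 0.40 for all genes. Because the members were chosen with this contrast known, nothing is read from the difference. The call of Folr2, at 2.36 times far lung from 13 margin counts (interval 1.18 to 4.41), was lost with library sizes that leave out abundant genes (1.70) and with means of spot levels (1.98). Cd163 had too few counts to be placed.

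Retnla was the most abundant member at the margin and was lower again inside the tumour. Its level was 0.739 counts per 10000 in the control (1503 counts), 0.560 in far lung (564 counts), 2.33 in the intermediate zone (482 counts), 2.64 in the margin (293 counts) and 0.685 in the core (97 counts). The margin was thus 4.71 times far lung (interval 4.08 to 5.44) and the core 0.259 times the margin (interval 0.204 to 0.327), while core and far lung differed by less than counting error could give (ratio 1.22, interval 0.975 to 1.52). Step by step, the level climbed from 0.685 in the core through 2.35 and 3.05 to 3.18 at 3 steps, then fell to 0.822 at 6 steps and 0.493 at 7. Within the core, the 8 spots enclosed by other tumour spots had 0.15 counts per 10000 of Retnla, from 3 counts, and the 60 outer ones 0.773. Retnla was therefore high next to the tumour and for some steps into the lung.

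Margin levels of Retnla were alike around both groups of tumour spots. In the margin, Retnla was at 2.68 counts per 10000 around the larger group (interval 2.34 to 3.06) and 2.54 around the smaller (interval 1.99 to 3.18). In the intermediate zone it was at 4.54 around the larger and 0.965 around the smaller. Much of the first value came from a single connected group of 11 spots at 2 to 6 steps, each with at least 10 counts of Retnla, which held 283 counts or 19.7% of the section's total. Without these spots, a setting chosen after the data were seen, the intermediate level around the larger group was 1.91 (interval 1.59 to 2.29), that of the whole intermediate zone 1.28, and the margin was still 4.55 times far lung (interval 3.92 to 5.28). The profile then ran 2.35, 2.63, 2.04 and 0.867 from 1 to 4 steps, with its highest level at 2 steps in place of 3. The core of the smaller group, in which 8 Retnla counts came from a single spot, was too shallow to place. More spots held the transcript as well: 62.9% of margin spots, 47.1% of core spots, 34.7% of far spots and 22.2% of control spots had a count. Thinned to 5000 counts per spot, which left out 13, 4, 58 and 362 shallower spots, the shares were 50.0%, 18.8%, 19.4% and 14.8%. After thinning, core and far lung were near each other while the margin stayed above both.

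**Figure D1:**
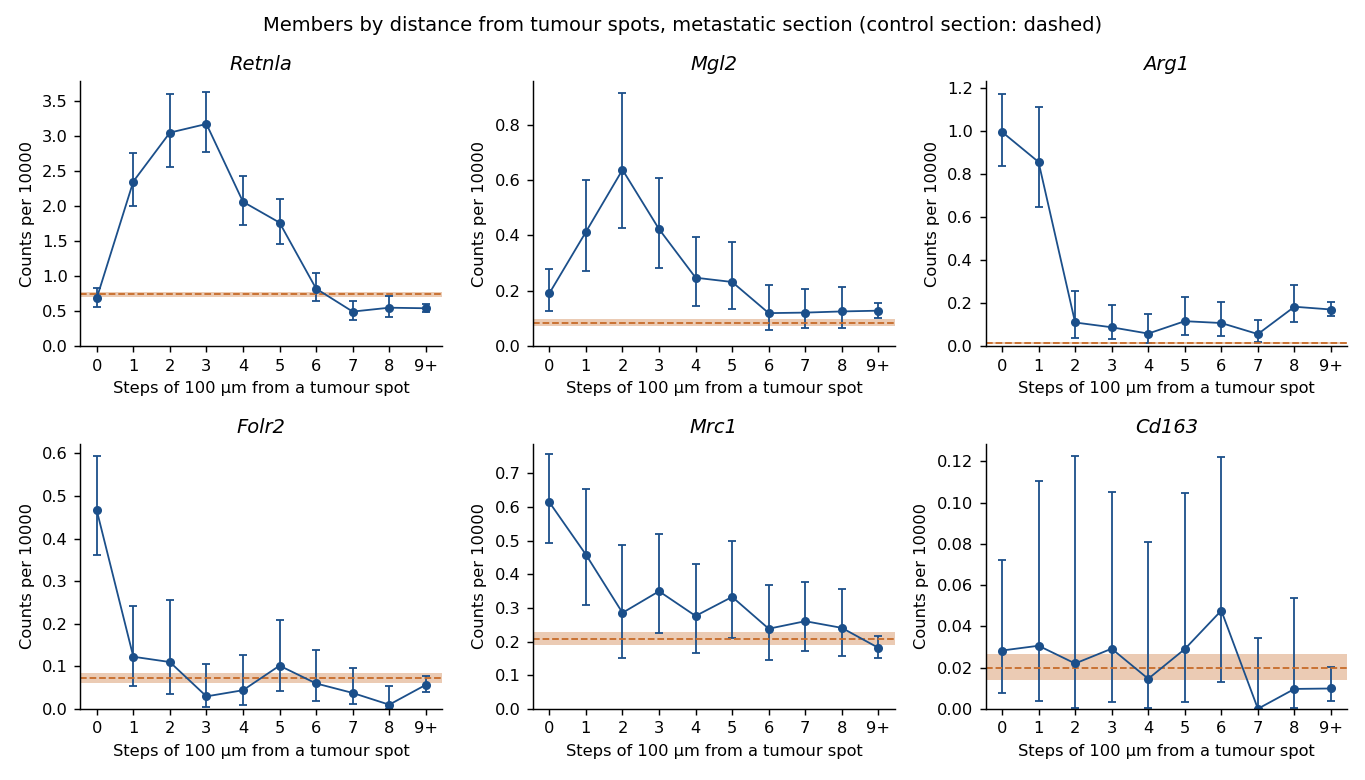
Level of each member in counts per 10000 (vertical axis) by distance from the nearest tumour spot in steps of 100 µm (horizontal axis, 0 being the tumour core) in the metastatic section, with 95% intervals of counting error. The dashed line and band are the control section, and the vertical scales differ. Retnla peaked at 3.18 at 3 steps and Mgl2 at 0.637 at 2 steps, whereas Arg1, Folr2 and Mrc1 were highest at 0 steps.

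Mgl2 had a similar profile at a lower level. It was at 0.0836 counts per 10000 in the control, 0.126 in far lung, 0.30 in the intermediate zone, 0.505 in the margin and 0.191 in the core. The margin was 4.00 times far lung (interval 2.87 to 5.52) and the core 0.378 times the margin (interval 0.229 to 0.608). None of the 27 core counts of Mgl2 came from the 8 enclosed spots. Around the smaller group the margin level was 0.720, from 21 counts, and around the larger it was 0.428, from 35 counts. Across 59 square tiles of 400 µm in the metastatic section, Mgl2 was among the 5 genes most like Retnla by Pearson's r of log2(level + 1), at 0.731. Of the 50-base words in the last 500 bases of its transcripts, 9.82% also occur in other genes, Clec10a among them, so that part of the Mgl2 signal is uncertain; for Retnla, Arg1, Mrc1 and Folr2 the share was 0.

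**Figure D2:**
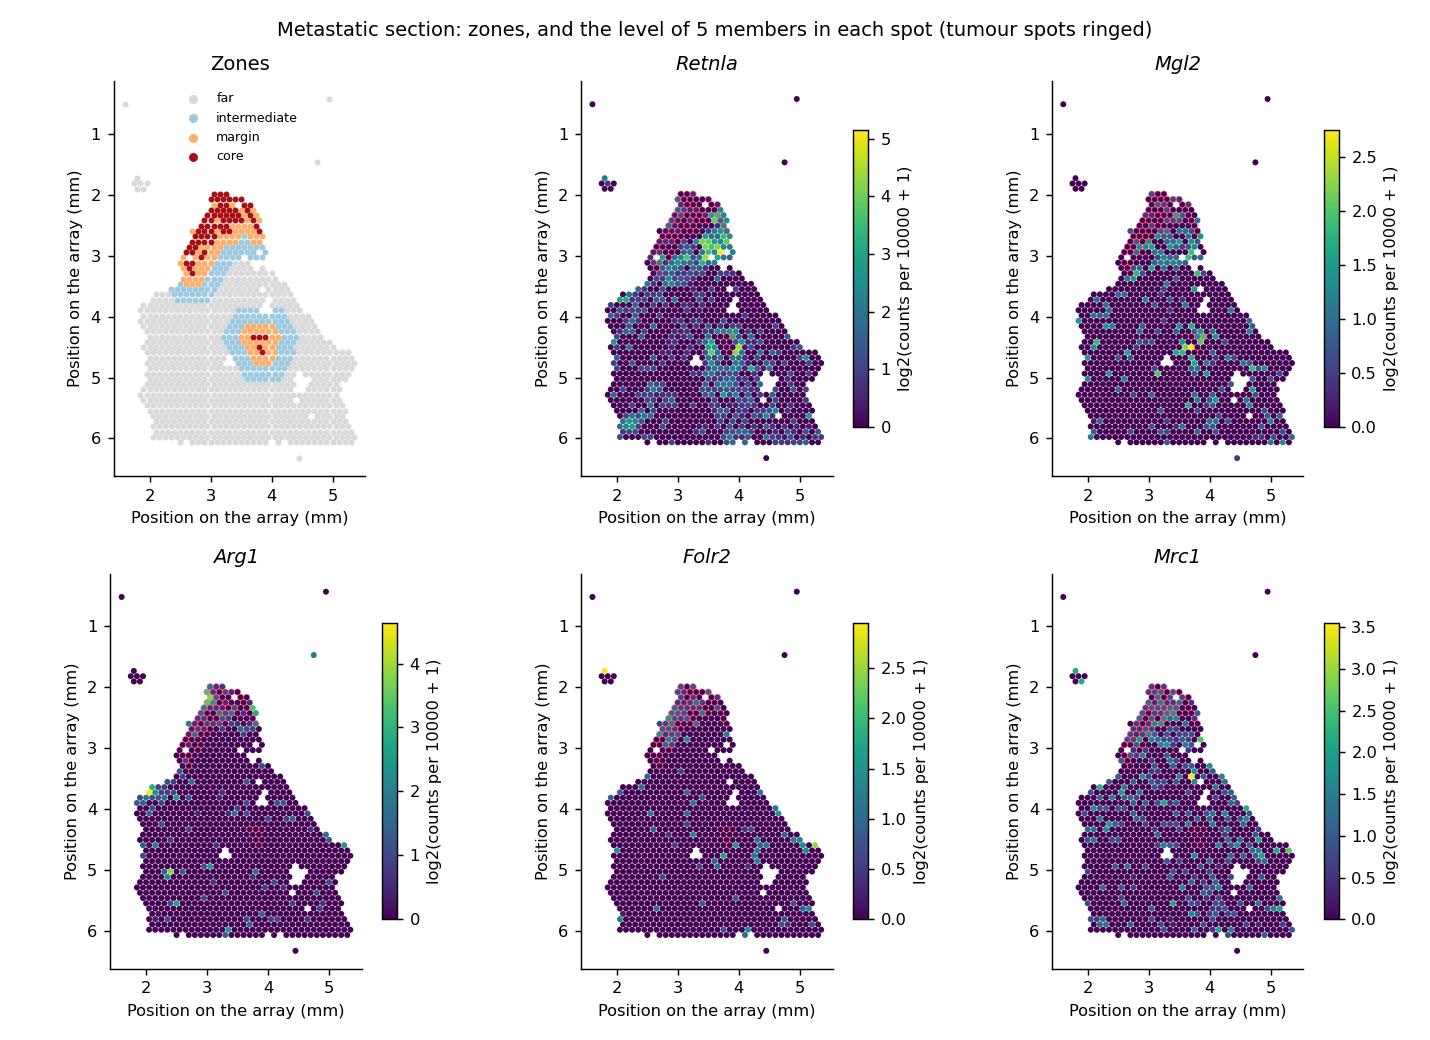
Metastatic section on the array, both axes in mm. The upper left panel colours each spot by zone, and the other panels give log2(counts per 10000 + 1) of a member in each spot on a scale of its own, with tumour spots ringed. Retnla and Mgl2 are high beside the larger group of tumour spots at the top and in spots around the smaller one, Folr2 is densest within the larger group but most of its counts are scattered outside it (66 of 141 in the core), and Arg1 sits in a few small patches, several of them at the border of the tissue.

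In the core, 3 of 5 members were at least 2-fold above far lung, Arg1, Folr2 and Mrc1, and 0 were at least 2-fold below it. The shares over 13215 genes were 21.9% higher and 22.2% lower, and the median log2 ratio was 1.62 for the members and 0.17 for all genes. Against the margin, Folr2 was at least 2-fold higher in the core, where 2.47% of 10235 genes were, and Retnla and Mgl2 were at least 2-fold lower, where 12.8% were. These contrasts too were known when the members were chosen.

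Folr2 had the largest ratio of core to far lung among the members. Its level was 0.0713 counts per 10000 in the control (145 counts), 0.0497 in far lung (50 counts), 0.0581 in the intermediate zone (12 counts), 0.117 in the margin (13 counts) and 0.466 in the core (66 counts). The core was 9.39 times far lung (interval 6.40 to 13.8) and 3.98 times the margin (interval 2.17 to 7.86). Enclosed and outer core spots were alike within counting error, at 0.60 (interval 0.310 to 1.05) and 0.444 (interval 0.334 to 0.579). A count of Folr2 was found in 52.9% of core spots and 5.19% of far spots, and in 17.2% and 2.19% after thinning. All 66 core counts were in the larger group, and 0 counts in the smaller allow a level of up to 1.54, so that Folr2 was not detectable there at this depth.

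Mrc1 was spread more evenly through the lung. It was at 0.209 counts per 10000 in the control, 0.201 in far lung, 0.320 in the intermediate zone, 0.388 in the margin and 0.614 in the core. The core was 3.06 times far lung (interval 2.35 to 3.96), and the margin, at 1.93 times (interval 1.36 to 2.70), was just under the 2-fold limit. Enclosed core spots were at 0.75 and outer ones at 0.592, with intervals that overlapped. Cd163 had 40 counts in the control, 12 in far lung, 5 in the intermediate zone, 3 in the margin and 4 in the core, or 0.0119 to 0.0283 counts per 10000, and every interval between zones included equal levels. No spot of either section held more than 2 counts of Cd163.

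Arg1 had the widest range of the members. Its level was 0.0128 counts per 10000 in the control (26 counts), 0.154 in far lung (155 counts), 0.0872 in the intermediate zone (18 counts), 0.550 in the margin (61 counts) and 0.996 in the core (141 counts). The core was 6.47 times far lung (interval 5.11 to 8.18) and 77.9 times the control (interval 51.0 to 123). In the margin, the first step was at 0.856 and the second at 0.110, so that the margin level came from spots touching the tumour. Enclosed core spots had 0.30 counts per 10000 and outer ones 1.11, a ratio of 0.270 (interval 0.0975 to 0.604). All 141 core counts were in the larger group; the smaller had 0 counts in its core, which allow up to 1.54, and 1 in its margin. For the margin of the smaller group, the level of 0.0343 was below far lung, at a ratio of 0.223 (interval 0.00560 to 1.26).

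The Arg1 counts were concentrated in a few spots. The 19 spots with at least 5 counts, a limit set after the values were seen, held 224 of the 375 Arg1 counts of the section, or 59.7%, and no control spot held more than 2. Of these 19 spots, 9 were in the core, 4 in the margin, 0 in the intermediate zone and 6 in far lung, and 11 lay at the border, meaning that fewer than 6 of the neighbouring positions were under tissue. The border includes the edges of holes. Margin spots at the border had 2.32 counts per 10000 of Arg1 (15 spots) and those inside the tissue 0.123 (82 spots), a ratio of 18.9 (interval 9.68 to 40.1). Inside the tissue the margin was level with far lung, at a ratio of 0.999 (interval 0.484 to 1.86), while the core stayed at 5.49 times far lung (interval 3.89 to 7.66). Without the border spots, Arg1 was thus at least 2-fold above far lung in the core but not in the margin. The members past the limit in that margin were Retnla, Mrc1, Mgl2 and Folr2. No share over all genes is given for these spots, so nothing is read from the number of members.

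The same spots held a further set of macrophage genes. The 5 genes most like Arg1 over the 59 tiles were Cd5l (r = 0.913), a secreted protein of tissue macrophages, Alox15 (0.909), a lipoxygenase, Marco (0.891), a scavenger receptor, Itgam (0.863), the integrin CD11b, and Fcna (0.849), ficolin A. The tiles come from 1 library, and neighbouring tiles are not independent. Because these genes were picked by their likeness to Arg1 in this section, their presence in spots rich in Arg1 followed largely from the choice. Of the 19 spots, 15 held Cd5l, 15 Alox15, 14 Marco, 17 Itgam and 19 Fcna, genes that 100, 69, 124, 236 and 126 of the section's 1110 spots held. Siglecf, a defining marker of alveolar macrophages, was in 0 of the 19, but only 32 spots of the section held it, so that nothing is read from this count. The spot highest in Arg1, with 32 counts, was in the core at the border and held 54 counts of Cd5l, 35 of Alox15 and 63 of Marco. The next, with 29 counts of Arg1, was in far lung 9 steps from tumour, also at the border, and held 56 of Cd5l, 30 of Alox15 and 74 of Marco.

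Cd5l, Alox15 and Marco were scarce in the control, with 12, 52 and 96 counts against 491, 269 and 506 in the metastatic section. The 20 spots with at least 5 counts of Cd5l held 54.1% of all Arg1 counts. In the core, 7 such spots had 4.42 counts per 10000 of Arg1 and the other 61 had 0.458, and in far lung 9 such spots had 5.69 and the other 781 had 0.0805. Mrc1 and Folr2 were less tied to them, with 4.27% and 13.5% of their counts there. Genes of the mesothelium, the outer lining of the lung, were at 1.07 counts per 10000 in the core, 0.874 in the margin, 0.385 in far lung and 1.13 in the control, and the part of the lining in the Arg1 level was not tested.

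Retnla also had an excess at the border, but not the same one. In the intermediate zone its level was 6.15 counts per 10000 at the border (21 spots) and 1.83 inside (134 spots). Inside the tissue, the margin was still 4.81 times far lung (interval 4.08 to 5.65) and the core 0.218 times the margin (interval 0.155 to 0.30). For Mgl2 inside the tissue, the margin was 4.77 times far lung (interval 3.35 to 6.72). The Folr2 ratio of core to far lung was 11.9 inside the tissue (interval 7.09 to 20.04), and that of Mrc1 was 3.63 (interval 2.63 to 4.94).

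**Figure D3:**
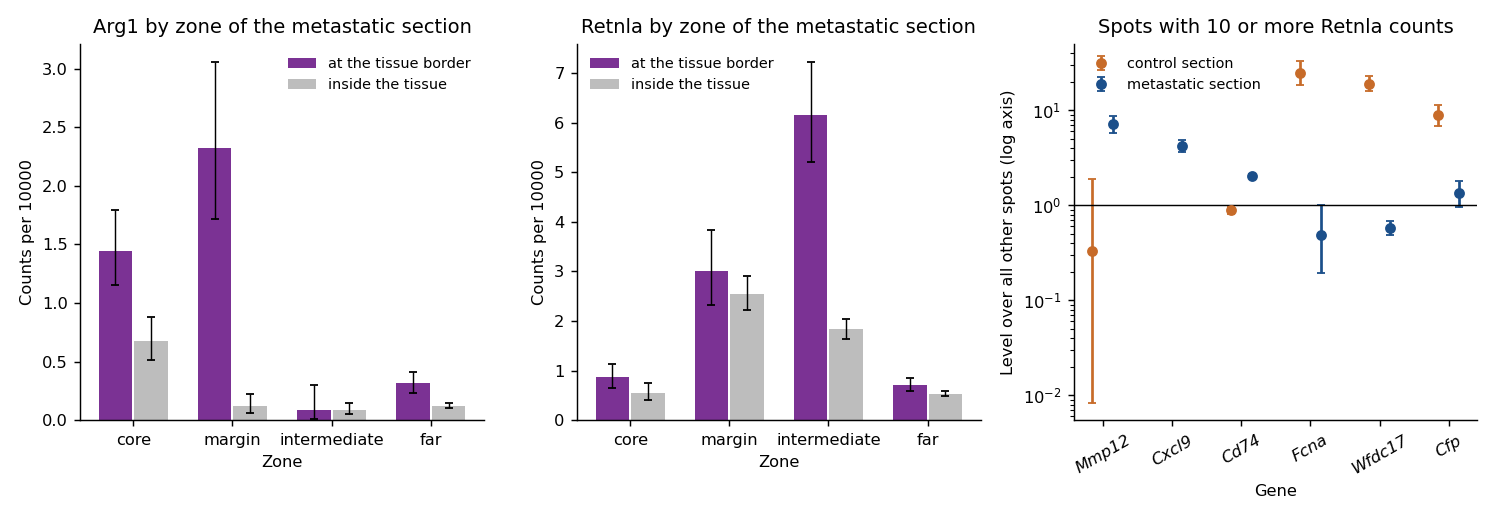
Left and middle: level in counts per 10000 (vertical axis) of Arg1 and Retnla in each zone (horizontal axis) for spots at the tissue border and inside the tissue, with 95% intervals of counting error. Right: level of 6 genes in the spots with 10 or more Retnla counts over their level in all other spots (log axis), where Fcna reached 24.8 in the control section and 0.484 in the metastatic section.

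Compared between sections, 1 of the 6 members, Arg1, was at least 2-fold higher in far lung than in the control, and 0 were at least 2-fold lower. Over 14783 genes, 1.66% were higher and 5.32% lower, and the median log2 ratio was -0.23 for the members and -0.17 for all genes. Arg1 was at 12.04 times the control (interval 7.91 to 19.0), and at 6.30 times without the spots with at least 5 counts of Cd5l. Mgl2 was at 1.51 times (interval 1.19 to 1.91), Mrc1 at 0.962 times (interval 0.810 to 1.14) and Retnla at 0.758 times (interval 0.687 to 0.835). Folr2 was at 0.696 times (interval 0.494 to 0.967), but at 1.06 times when the control spots highest in heart muscle genes were left out, so that its direction rested on them. Section, library and animal cannot be told apart in these ratios.

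Macrophage transcripts as a whole were denser around the tumour. The summed level of 7 macrophage genes, Cd68, Csf1r, Adgre1, Fcgr1, Mertk, Fcer1g and Tyrobp, was 3.85 counts per 10000 in the control, 5.68 in far lung, 9.82 in the intermediate zone, 15.98 in the margin and 13.75 in the core. The members were also set against these 7 genes in the same spots, a ratio that does not depend on airway transcripts in the total and that scales all members of a zone alike. Neutrophil genes were at 2.46 counts per 10000 in the control, 25.9 in far lung, 10.48 in the margin and 1.94 in the core. The part of neutrophils and other myeloid cells in the 7-gene level, and so in these ratios, was not tested. Retnla stood at 19.2 counts per 100 macrophage counts in the control, 9.87 in far lung, 23.8 in the intermediate zone, 16.5 in the margin and 4.98 in the core. By this ratio Retnla was 1.67 times far lung in the margin (interval 1.45 to 1.93) and 0.505 times in the core (interval 0.403 to 0.627).

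For Arg1 the ratio to macrophage counts was 2.67 times far lung in the core (interval 2.11 to 3.38) and 1.27 times in the margin (interval 0.928 to 1.72). Folr2 was 3.88 times far lung in the core (interval 2.64 to 5.71) and 0.838 times in the margin. Mrc1 was at 1.26 times in the core (interval 0.972 to 1.63) and 0.686 times in the margin (interval 0.482 to 0.958), so that its excess per total count was not an excess per macrophage count. Mgl2 was 1.42 times in the margin (interval 1.02 to 1.96) and 0.624 times in the core (interval 0.396 to 0.951). Between far lung and the control, Arg1 remained 8.16 times higher per macrophage count, Retnla was at 0.514 times and Folr2 at 0.472 times.

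**Figure D4:**
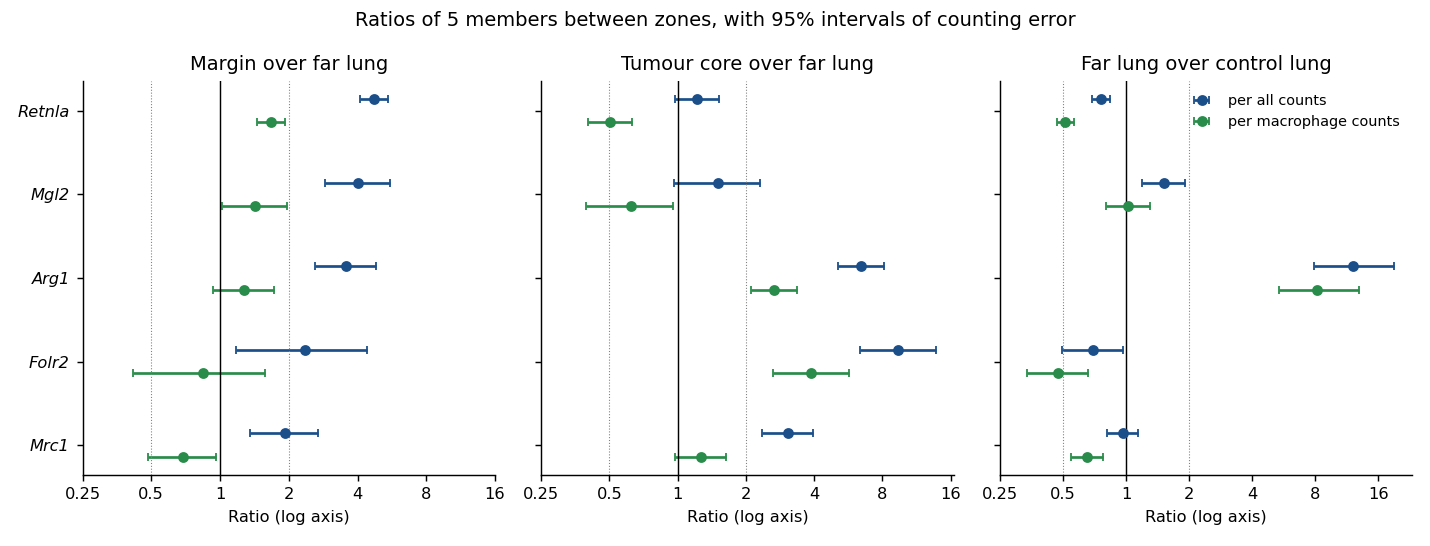
Ratio of each of 5 members between zones (log axis) for 3 contrasts, per all counts and per counts of 7 macrophage genes, with 95% intervals of counting error and dotted lines at ratios of 0.5 and 2. Relative to macrophage counts, Arg1 and Folr2 stayed above far lung in the core at 2.67 and 3.88, and Retnla stayed above it in the margin at 1.67.

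In the control lung the members lay in different places. Compartments were taken as the 10% of spots highest in the summed level of a marker list, and they overlap. In the spots highest in complement C1q genes, which mark interstitial macrophages, Retnla was at 3.63 counts per 10000 against 0.490 in the rest (ratio 7.41, interval 6.67 to 8.23) and Folr2 at 0.352 against 0.0470 (ratio 7.49, interval 5.27 to 10.6). Mgl2 and Mrc1 followed these genes less closely, with ratios of 3.44 and 2.69. Folr2 was also high in spots of adventitial fibroblasts, the connective tissue around vessels and airways, at a ratio of 8.02. Retnla at 4.49 and Mrc1 at 2.67 were high there too. Part of the control level of Folr2 came from the spots highest in heart muscle genes. Leaving those out raised its ratio of far lung to control, as given above. Mgl2 was at 2.88 in the spots highest in conventional dendritic cell genes, where Retnla was at 0.924. Spots highest in alveolar macrophage genes had no such excess of Retnla (1.07), and capillary spots had little of it (0.128). The list of interstitial macrophage markers as a whole was dominated by Cbr2, which airway cells also express, and did not separate the members. The 26 control counts of Arg1 were too few and too scattered to place.

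**Figure D5:**
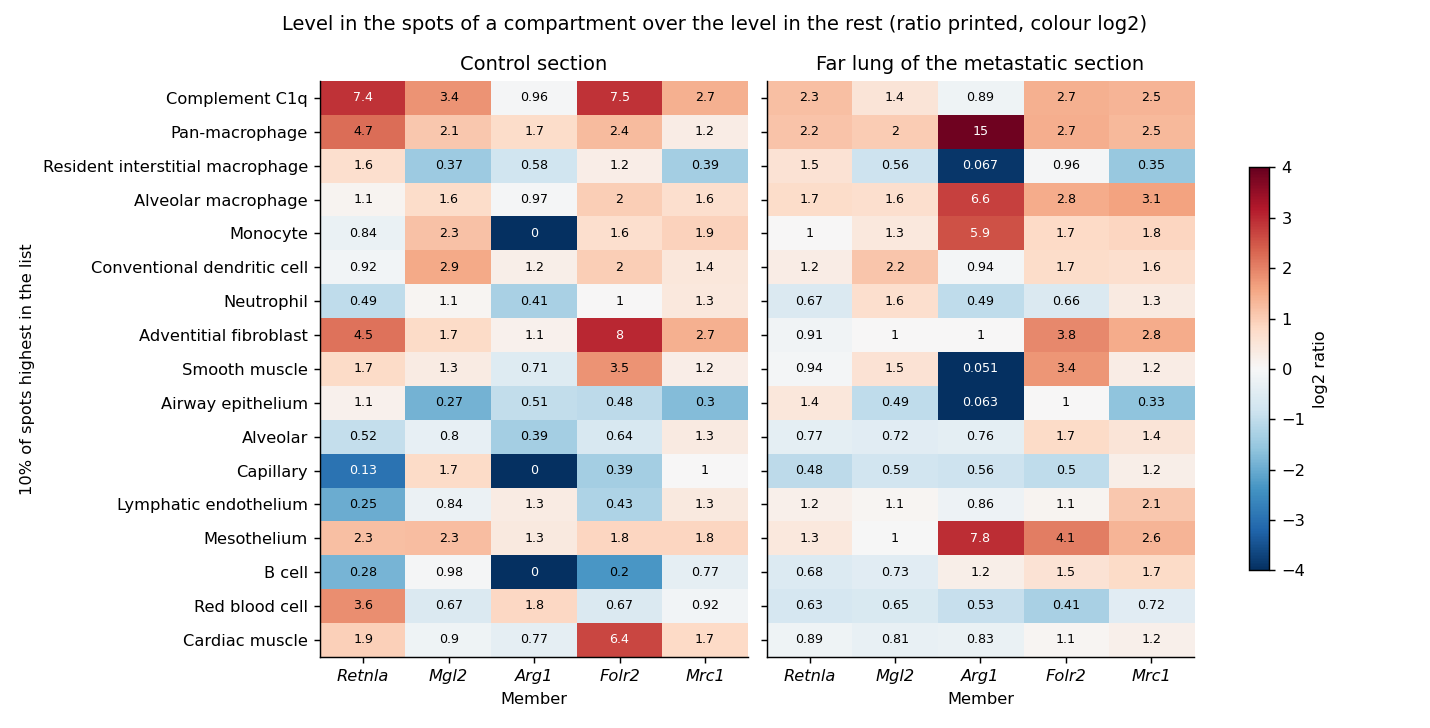
Level of 5 members in the 10% of spots highest in each marker list (rows) over their level in the remaining spots, for the control section (left) and far lung of the metastatic section (right); the ratio is printed and the colour is its log2, limited to the range of the scale. In the control, Retnla and Folr2 are highest in complement C1q and adventitial fibroblast spots, and in far lung Arg1 is highest in pan-macrophage spots, at 14.9.

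In far lung the order changed. Retnla was at 2.30 times the rest in C1q spots and 0.912 times in adventitial fibroblast spots. Folr2 was at 3.77 times in adventitial fibroblast spots and 4.13 times in mesothelium spots. Arg1 was at 14.9 times in the spots highest in macrophage genes (interval 10.7 to 21.0), 7.83 times in mesothelium spots and 6.63 times in those highest in the alveolar macrophage list, but 0.894 times in C1q spots. Marco, a member of that list, was 0.209 counts per 10000 in far lung, while Siglecf was at 0.0238.

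Retnla was patchy in both sections. Several genes set beside its spots below were picked as those most like it across tiles of the same section. Fcna, Wfdc17 and Cfp were picked in the control, and Mmp12 and Cxcl9 in the metastatic section. Their excess there followed largely from the choice, and nothing is read from the difference between sections. In the control, 27 spots with at least 10 counts, a limit set after the values were seen, held 48.4% of all Retnla counts, 8 of them in a single connected group of 348 counts, and the highest spot had 101. In the metastatic section 26 such spots held 36.4%, of which 1 was in the core, 10 in the margin, 10 in the intermediate zone and 5 in far lung. The control spots were rich in Fcna (1.62 against 0.0655 counts per 10000 in the rest), in Wfdc17 (3.35 against 0.175), a small secreted protein of macrophages, and in Cfp, properdin (1.62 against 0.183). The metastatic spots were instead rich in Mmp12, macrophage elastase (2.11 against 0.297), and in Cxcl9, a chemokine induced by interferon gamma (3.82 against 0.912). They were also rich in Cd74, the invariant chain of antigen presentation (34.1 against 16.8). Most of these spots lay in the margin or intermediate zone, whereas the remaining spots were mostly far lung. The Cxcl9 level of the whole margin, given below, was no lower than theirs. These ratios thus do not separate spots rich in Retnla from their zone.

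The same genes were then compared in the other section. In the metastatic section Fcna and Wfdc17 were at ratios of 0.484 (interval 0.193 to 1.01) and 0.579 (interval 0.482 to 0.690) to the remaining spots, and Cfp at 1.34 (interval 0.966 to 1.82). In the control, the Retnla spots held 1 count of Mmp12, at 0.330 times the rest (interval 0.00829 to 1.87), and 0 of Cxcl9, where the interval reached 27.9, so that an excess of Cxcl9 was not detectable at this depth. C1qa, a subunit of complement C1q, was raised in both, at 3.51 times the rest in the control and 1.80 times in the metastatic section. Haemoglobin Hba-a1 was 2.58 times the rest in the control spots and 0.105 times in the metastatic ones, and its part in the result was not tested. Arg1 had 0 counts in the control spots and 5 in the metastatic ones, at 0.314 times the rest (interval 0.101 to 0.739).

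Likeness across tiles sets no limit on spots. Over 110 tiles of the control, the genes most like Retnla were Fcna (r = 0.818), Wfdc17 (0.740), Cfp (0.536), C1qa (0.501) and Ccdc80 (0.496). Over the 59 tiles of the metastatic section they were Mmp12 (0.769), Cxcl9 (0.735), Ly6i (0.733), Aif1 (0.731) and Mgl2. Mgl2 itself was most like Mmp12 (0.850), Cd74 (0.795), Itgax (0.776), Clec4n (0.768) and H2-Ab1 (0.757), genes of myeloid cells and of antigen presentation. Folr2 in the control was most like the fibroblast genes Cd248 (0.689), Fbln1 (0.680), Dcn (0.652), Ccdc80 (0.643) and Pi16 (0.636). In the metastatic section its closest genes were AA467197 (0.673), Dnm1 (0.672), Fbp2 (0.666), Eps8 (0.652) and Pla1a (0.65). Mrc1 was most like Bst2 (0.776), Igfbp4 (0.739), Col3a1 (0.730), Emp3 (0.724) and Eif1a (0.724) there. In the control the highest r was only 0.483 for Mrc1, 0.450 for Mgl2 and 0.273 for Arg1, and Cd163, with few counts, reached 0.392 in the control and 0.599 in the metastatic section.

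Among themselves the members were little alike. In the metastatic section the highest r after Retnla and Mgl2 was 0.479, for Mrc1 and Folr2, and that of Retnla and Arg1 was 0.139. In the control the highest was 0.403, for Retnla and Folr2, and Arg1 was between -0.142 and 0.064 with every other member. Of the 134 metastatic spots with a count of Arg1, 47.0% also had one of Retnla, which 41.7% of all spots had. Of the 203 spots with Mgl2, 58.6% had Retnla.

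For IL-4 and IL-13, mainly the transcripts of receptors and signalling proteins were counted. Il13 had 0 counts in every zone and Il4 had 0 in core, margin and far lung, so that the cytokines were not detectable at this depth. Of 13 genes of IL-4 and IL-13 signalling with enough counts, 3 were at least 2-fold higher in the margin than in far lung, Il2rg, Irf4 and Socs1, and 0 lower, with a median log2 ratio of 0.75, where 20.3% of all genes were higher and their median was 0.40. In the core 3 were higher and 3 lower, with a median of 0.19, where 21.9% and 22.2% of all genes were higher and lower and their median was 0.17. These counts were near the share over all genes, and between far lung and the control 0 passed in either direction. Il4ra, the shared receptor chain, was at 1.08 counts per 10000 in the margin, 0.812 in the core, 1.07 in far lung and 0.769 in the control. Stat6 was at 0.865, 0.805, 0.623 and 0.681 in the same order, and Jak1, a kinase of the receptor, at 1.79, 1.21, 1.06 and 0.931. The margin was 1.01 times far lung for Il4ra (interval 0.827 to 1.22) and 1.39 times for Stat6 (interval 1.11 to 1.73). Transcript levels do not show the activity of this signalling, which was not tested.

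Lists of further alternative activation genes and of the opposite, classical state were compared in the same way. Over all genes, 20.3% were at least 2-fold higher in the margin than in far lung (median log2 ratio 0.40), and 21.9% were higher and 22.2% lower in the core (median 0.17). Of 14 further alternative activation genes, 11 were at least 2-fold higher in the margin than in far lung and 0 lower (median log2 ratio 1.84), and in the core 6 of 13 were higher and 2 lower (median 0.93). Of 11 classical activation genes, 8 were higher in the margin and 0 lower (median 2.02), and in the core 6 were higher and 1 lower (median 1.14). Between far lung and the control, 4 of 14 alternative and 3 of 11 classical genes were at least 2-fold higher, and 0 and 1 were lower. Over all genes, 1.66% were higher and 5.32% lower in this contrast. The lists were chosen with earlier results of these data known.

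Named genes of these lists ran as follows. Clec10a, the close relative of Mgl2, was at 0.721 counts per 10000 in the margin, 0.622 in the core and 0.14 in far lung, so that unlike Mgl2 it was nearly as high in the core as in the margin. Fn1, fibronectin, was at 8.28, 9.85 and 3.49, and Tgm2, transglutaminase, was level at 2.52, 2.62 and 2.51. Chil3, a chitinase-like protein that alveolar macrophages also make, was at 1.69, 0.367 and 0.976. In the classical list Cxcl9 was at 4.17, 2.37 and 0.318, Ccl5 at 2.71, 0.848 and 0.607, and Irf1 at 2.42, 1.26 and 1.28. Cxcl9, Ccl5 and Irf1 thus shared with Retnla and Mgl2 a level in the margin above that in the core.

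Arginine can be used by arginase or by nitric oxide synthase, and the genes around Arg1 were listed for that reason. Of 12 arginine and polyamine genes other than Arg1, 6 were at least 2-fold higher in the margin than in far lung and 0 lower (median log2 ratio 0.78), and in the core 4 were higher and 2 lower (median 0.0029), where 20.3% of all genes were higher in the margin and 21.9% higher and 22.2% lower in the core. Odc1, which makes putrescine from ornithine, was at 3.04 counts per 10000 in the core, 2.08 in the margin, 0.582 in far lung and 0.596 in the control. Oat, which uses ornithine for proline, was at 0.932, 1.04, 1.25 and 1.19 in the same order. Nos2, the inducible nitric oxide synthase, had 3 counts in the core, 10 in the margin and 24 in far lung. Core spots hold 4T1 cells and macrophages together, and their counts do not separate the 2.

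Hypoxia is known to raise Arg1, and 12 genes of that response were measured. In the core 4 of 11 were at least 2-fold above far lung and 3 below (median log2 ratio 0.53), and in the margin 4 were above and 1 below (median 0.53). Over all genes, 21.9% were above and 22.2% below in the core (median 0.17), and 20.3% above and 9.23% below in the margin (median 0.40). Ldha was at 10.8 counts per 10000 in the core against 3.07 in far lung and Pgk1 at 4.83 against 0.977, both glycolytic enzymes, while Vegfa was at 0.445 against 3.60 and Hilpda at 0.318 against 1.13.

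Markers of other macrophages and of neighbouring cells moved with the members, and their part in the result was not tested. Complement C1q genes were at 1.75 counts per 10000 in the control, 3.59 in far lung, 13.3 in the margin and 13.1 in the core. Monocyte genes were at 0.995, 1.53, 3.95 and 4.09 in the same order, and neutrophil genes at 2.46, 25.9, 10.48 and 1.94. Of 13 interstitial macrophage markers, F13a1, Fcna, Timd4, Ltc4s and Igf1 were at least 2-fold above far lung in the core, and Lyve1, Cbr2, Gas6, Cd209f and Selenop at least 2-fold below. This list thus went both ways. Of 9 alveolar macrophage markers tested, 6 were at least 2-fold below far lung in the core, and Siglecf had 0 counts there. Marco was the only one above. Over all genes, 21.9% were above and 22.2% below in this contrast.

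At the threshold that set the core, the 10 spots just inside (mean log2 value 0.569 to 0.668) and the 10 just outside (0.501 to 0.556) differed in Retnla and Arg1. Retnla was at 0.703 counts per 10000 inside and 3.53 outside and Arg1 at 0.440 inside and 2.08 outside, from 8 and 5 counts inside and 39 and 23 outside. Mrc1 was at 1.23 inside (interval 0.673 to 2.07) and 0.634 outside (interval 0.255 to 1.31), and Mgl2 (4 and 5 counts), Folr2 (3 and 3) and Cd163 (0 and 1) differed by less than counting error could give.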

How the data were processed

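The authors deposited, for each of the 2 sections, a matrix of counts of unique transcripts per feature and spot under tissue with the spot positions. Per the labels, these counts were made with Space Ranger 1.3.1 on mm10 (GRCm38); the deposited counts were not normalized. Symbols shared by more than 1 row (38 symbols) were left out of named genes and lists. Their rows stayed separate in the shares over all genes. Levels are summed counts per 10000 counts, with exact Poisson intervals; ratios carry the Clopper-Pearson interval of the split of counts. A ratio of at least 2 or at most 0.5 was taken as past the limit, with 0.5 counts added to each side, for genes with at least 20 counts over both sides. The threshold for tumour spots was Otsu's. Thinning drew 5000 counts per spot. Tiles of 400 µm with at least 8 spots were compared for genes with at least 200 counts in the section. Promoters and gene positions were RefSeq tables of GRCm38, and transcripts were those of GENCODE on the same build.

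Members and gene lists were chosen with earlier results of these data known. Named were the members, up to 4 genes with the most counts of each pathway list, and the 5 genes most like each member in tiles (for Cd163, and for Arg1, Mrc1 and Mgl2 in the control, their highest r only); genes past the limit in short counts, marker genes, and genes of the Arg1 and Retnla spots were named after their values were seen. One gene of a pathway list is not reported here. No test across sections was made, since each group has 1 section. Alternative tumour thresholds, zone limits, library sizes and spot sets were tried. The scripts used Python 3.11.15, numpy 2.4.6, scipy 1.17.1 and pandas 2.3.3 and were tested on simulated data.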

Additional observations from a re-analysis of the deposited data

How the results depend on the processing

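No paired analysis was possible because each group has 1 section. Of 107 alternative values of the main ratios and counts, 91 stayed within the counting interval of the ratio or within 1.5 times the count. Another 14 moved and 2 reversed direction. Most of the 107 were counts of members past the limit, many of them counts of lower members that were 0 in the main setting. The share thus says little about the main ratios, several of which left their interval, as given below. For the other member ratios, 140 of 175 stayed within the interval. The Retnla ratio of margin to far lung (4.71) was 3.41 with the highest 5% of spots as core, 3.33 with Csn3 alone, 5.96 around the largest connected group of tumour spots, 3.79 around the other groups, 3.39 with library sizes that leave out Scgb1a1, haemoglobin, mitochondrial, surfactant protein and immunoglobulin genes and 5.89 after thinning. The Arg1 ratio of core to far lung (6.47) was 4.51 with those library sizes and 4.87 as a mean of spot levels. Outside the largest of the 5 connected groups it was 0.640, and in the smaller group of tumour spots 0, both from few counts. There the Arg1 margin ratio was 0.306 and 0.223, so 1 member was at least 2-fold lower in each case, and the core ratio of Mrc1 was 0.491 and 0; that of Folr2 was 0 in the smaller group. Without border spots, the Arg1 margin ratio was 0.999, its ratio of far lung to control (12.04) was 7.66, and 1 member, Folr2, was at least 2-fold lower in far lung than in the control. Without spots of at least 5 Cd5l counts the latter ratio was 6.30 and 1 member, Cd163, was lower. Leaving out border spots or Cd5l spots, leaving out the connected Retnla spots, and taking the smaller group alone, were chosen after the data were seen. Of 228 pairs of member and compartment over both sections, 48 were at least 2-fold higher, and 54 were with 5% of spots. The count was 43 with the control and far lung, in place of the control and the whole metastatic section. It comes from fewer pairs, because Cd163, with 12 counts in far lung, was not tested there. No share over all genes is given for these pairs or for member counts under alternative settings, so nothing is read from either. Cd163 and the smaller group are limited by depth, and the cause of these changes was not tested.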
